A study of Mus musculus with 9 samples.

Results

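The 10 genes described here act in DNA replication. They are Mcm2 to Mcm7, Cdt1, Pcna, Rrm1 and Rrm2, chosen by name because levels of such genes stood higher in macrophages without MyD88 than in wild type on these same arrays. They make up 10 of the 12394 genes that the arrays name, and 25 of the 22690 probe sets. The cells were peritoneal macrophages of mice injected with thioglycollate, an irritant that draws such cells in, from wild-type, MyD88 KO and TRIF KO mice, which lack MyD88 or TRIF, the adaptor proteins that pass on the signal of the lipopolysaccharide (LPS) receptor TLR4. They were unstimulated (0 h) or had been given LPS at 100 ng/ml, for 1 h in some groups and 4 h in others. Each of the 9 groups had 1 array, so no group has a replicate and no difference between a pair of arrays has an error of its own. The labels give neither the age of the mice, nor how the deletions were made, nor how many mice went into an array.

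DNA replication begins when Cdt1, with the origin recognition complex and Cdc6, loads the ring of the MCM proteins 2 to 7 onto origins. That ring is the helicase that opens the double strand. Pcna is the sliding clamp that holds the polymerases on the template, and Rrm1 and Rrm2 are the large and the small subunit of ribonucleotide reductase, which makes the deoxynucleotides. In many cell types transcription of these genes rises before S phase under E2F factors and is low in resting cells. Thioglycollate-elicited macrophages are mostly taken to divide little in culture.

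Since these genes share this mode of control, their promoters were read from the RefSeq table of the build GRCm38.p6, which held windows for 9 of the 10 genes (Mcm4 had none there). Each window ran from 250 bases before to 50 after the start site, and Mcm7 had 2 windows. They were searched on both strands for the E2F words TTTCCCGC, TTTGGCGC, TTTCGCGC and TTTGCCGC, whose matches can overlap each other. Of the 10 windows, 5 (50.0%) held at least 1 of these words, against 2.26% of all 32851 windows of the table. This was not particular to the members. In lists of other genes used below it was 34.8% for origin licensing, 29.0% for polymerases and fork and 28.6% for S phase chromatin. It was 26.7% for G1-S regulators, 23.5% for checkpoint and repair, 8.33% for G2 and mitosis and 0.0% for nucleotide supply. The 5 windows of members belonged to Mcm3, Mcm5, Mcm6, Mcm7 and Cdt1, and the other window of Mcm7 held none. Shown are the window of Mcm6 and that of Mcm7 with such words, genes which had large differences between the genotypes, of Mcm5, and of Rrm2, which had the largest difference and no such word. Each is written 5′ to 3′ along the gene, up to 30 bases past the start site, with the E2F words in capitals.
Mcm6, chr1:128359676-128359955, minus strand: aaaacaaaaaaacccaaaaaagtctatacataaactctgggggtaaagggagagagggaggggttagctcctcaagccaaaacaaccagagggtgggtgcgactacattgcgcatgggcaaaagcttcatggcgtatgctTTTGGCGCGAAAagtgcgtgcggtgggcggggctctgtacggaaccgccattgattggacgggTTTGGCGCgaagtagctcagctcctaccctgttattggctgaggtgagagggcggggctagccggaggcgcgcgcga
Mcm7, chr5:138171854-138172133, minus strand: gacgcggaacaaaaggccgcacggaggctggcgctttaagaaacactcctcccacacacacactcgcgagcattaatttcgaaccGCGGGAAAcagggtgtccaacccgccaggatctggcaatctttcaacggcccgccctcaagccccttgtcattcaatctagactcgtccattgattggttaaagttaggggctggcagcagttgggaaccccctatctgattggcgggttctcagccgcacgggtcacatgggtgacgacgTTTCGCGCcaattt
Mcm5, chr8:75109259-75109538, plus strand: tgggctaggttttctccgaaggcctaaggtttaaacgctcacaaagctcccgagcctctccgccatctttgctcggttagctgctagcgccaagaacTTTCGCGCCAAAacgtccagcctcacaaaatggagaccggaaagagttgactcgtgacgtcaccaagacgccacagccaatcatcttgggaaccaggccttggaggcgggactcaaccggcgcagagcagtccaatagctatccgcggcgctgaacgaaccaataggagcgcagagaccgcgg
Rrm2, chr12:24708004-24708283, plus strand: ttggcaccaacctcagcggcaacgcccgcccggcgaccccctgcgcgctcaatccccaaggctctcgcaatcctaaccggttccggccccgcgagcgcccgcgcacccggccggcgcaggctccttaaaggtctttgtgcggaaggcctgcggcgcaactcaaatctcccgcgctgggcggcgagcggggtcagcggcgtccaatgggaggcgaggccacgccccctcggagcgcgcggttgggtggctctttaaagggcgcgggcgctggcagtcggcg
In Mcm6, overlapping words on opposite strands ran from base -110 to -99 before the start site, and another lay at -47 to -40. In Mcm5 the overlapping pair ran from -153 to -142. In Mcm7 the words lay at -165 to -158 and, past the start site, at 17 to 24. The match in Cdt1 lay at bases 33 to 40 past the start site, outside the printed length. The word CCAAT, as searched on both strands, was in 9 of the 10 windows and in 37.4% of all windows. It was also in 80.6% of windows for G2 and mitosis, 78.6% for S phase chromatin and 33.3% to 52.9% in the other cell cycle lists. A match describes the letters only.

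The arrays report log2 expression made by RMA, which normalizes arrays against each other and sums the probes of a probe set. A difference of 1 is therefore 2-fold. Where a gene had several probe sets, the one with the highest mean stood for it, and 10032 genes that reached log2 = 6 on at least 1 array were analysed. All 10 genes passed, but Mcm5 and Rrm2 did so only through the MyD88 KO arrays, so they had to stand higher there. Array medians lay between 7.01 and 7.07, and 10 of 10 macrophage markers, among them Cd68, Csf1r and Adgre1, reached log2 = 6. So did 10032 of all 12394 genes, among them the T cell marker Cd3e, so that count does not identify the cells. The control probe sets at the 3′ end of Actb read -0.13 to -0.01 (log2) against those at its 5′ end, those of Gapdh 0.09 to 0.24 and those of Tfrc 2.07 to 2.29, over the 9 arrays. Myd88 itself read 9.571, 9.579 and 10.002 at 0, 1 and 4 h in wild type and 9.295, 9.191 and 9.338 in MyD88 KO. It is not known here whether its probes fall inside the deleted exons, so these levels do not check the labels. In whole-cell RNA, more dividing cells and more transcript per cell cannot be told apart. The labels do not say that arrays stem from separate mice or cultures, so errors and p-values below cover these 9 arrays alone. With 1 array a group, the error is what separate terms for genotype and time leave over. It mixes any unlike response of the genotypes to LPS with scatter between arrays, which may be technical.

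In MyD88 KO macrophages Rrm2, Mcm7 and Mcm6 stood furthest above wild type, followed by Cdt1, Mcm5 and Mcm2. Mcm4 and Rrm1 were slightly above, and Mcm3 and Pcna were not. The median difference between MyD88 KO and wild type, averaged over the 3 times, was 0.34 (log2), in a range from -0.08 to 0.87, while that of all genes was -0.0017. The genes were chosen on this contrast, so these values describe it and no test is given. By the rule used below for other genes (limma, adjusted p below 0.05), 6 of the 10 stood higher and 0 lower, against 4.56% and 2.68% of all genes, and nothing is read from those shares. A higher level without MyD88 at all 3 times was seen for 7 of the 10 (18.7% of all genes), so the name under which the set was chosen does not hold for Mcm3 and Pcna, and for Rrm1 not at 4 h. Centring each array on 10 reference transcripts in place of RMA's own scale lowers every difference between MyD88 KO and wild type by 0.12, and turned the sign of none of the 10.

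**Figure D1:**
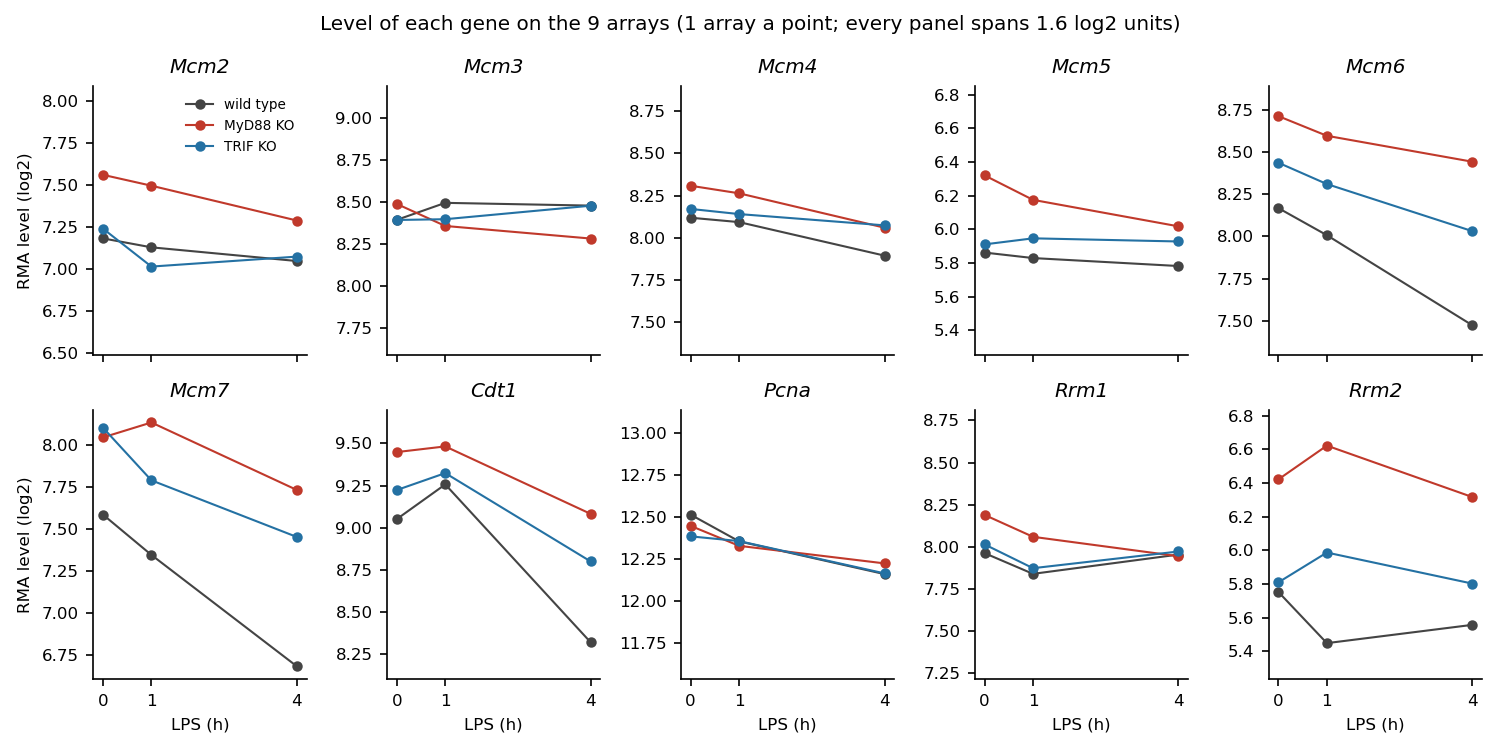
RMA level (log2, 1 array a point) of the 10 genes against hours of LPS in wild type, MyD88 KO and TRIF KO, with every panel spanning the same number of log2 units. MyD88 KO lies above wild type at all 3 times for 7 genes; the lines cross or coincide for Mcm3 and Pcna and meet at 4 h for Rrm1.

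Mcm6, a subunit of the helicase ring, read 8.17, 8.01 and 7.47 (log2 level) at 0, 1 and 4 h in wild type. It read 8.71, 8.60 and 8.44 in MyD88 KO and 8.44, 8.31 and 8.03 in TRIF KO. At each time the order was MyD88 KO, TRIF KO, wild type, and the lowest MyD88 KO array lay only just above the highest array of the other genotypes. The difference between MyD88 KO and wild type was 0.55, 0.59 and 0.97 in time order, a mean of 0.70 ± 0.23 (SD over 3 times). It was largest at 4 h, where wild type was lowest.

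Mcm7, another subunit of the ring, read 7.58, 7.34 and 6.68 in wild type. It read 8.04, 8.13 and 7.73 in MyD88 KO and 8.10, 7.79 and 7.45 in TRIF KO. All MyD88 KO arrays lay above all wild-type arrays, while TRIF KO overlapped both. The difference between MyD88 KO and wild type was 0.46, 0.79 and 1.05, so that Mcm7 was the 1 gene of the 10 to pass 2-fold at 4 h, as did 0.209% of all genes. None of the 10 did at 0 h, as did 0.0797% of all genes. At 1 h only Rrm2 did, at 1.17, and the share of all genes was not counted at that time. The value of Mcm7 at 4 h is that of 1438320_s_at. Its other probe sets differed then by 0.51 (1416030_a_at), 0.15 (1439269_x_at) and -0.07 (1416031_s_at). In TRIF KO the mean difference of Mcm7 from wild type was 0.58 ± 0.17 (SD over 3 times).

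Cdt1, which loads the ring and is destroyed once S phase starts, read 9.05, 9.26 and 8.32 in wild type and 9.45, 9.48 and 9.08 in MyD88 KO. In TRIF KO it read 9.22, 9.32 and 8.80. The order was again MyD88 KO, TRIF KO, wild type at each time, but the ranges overlapped, since every genotype had its lowest level at 4 h. The difference between MyD88 KO and wild type was 0.40, 0.23 and 0.76 in time order.

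Rrm2, the subunit whose amount usually limits ribonucleotide reductase in dividing cells, read 5.75, 5.45 and 5.56 in wild type and 6.42, 6.62 and 6.32 in MyD88 KO. It read 5.81, 5.99 and 5.80 in TRIF KO. The 3 MyD88 KO arrays were the highest of the 9, and the difference from wild type was 0.87 ± 0.27 (SD over 3 times). The levels lie close to the filter of log2 = 6. With values under 6 raised to 6 the mean difference was 0.45. Its partner Rrm1 read 7.96, 7.84 and 7.95 in wild type and 8.19, 8.06 and 7.94 in MyD88 KO, with TRIF KO at 8.01, 7.87 and 7.97. It stood 0.23 and 0.22 above wild type at 0 and 1 h and level with it at 4 h, at -0.01.

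Among the other helicase subunits, Mcm5 read 5.86, 5.83 and 5.78 in wild type, 6.32, 6.18 and 6.02 in MyD88 KO and 5.91, 5.95 and 5.93 in TRIF KO. Mcm2 read 7.18, 7.13 and 7.05 in wild type and 7.56, 7.49 and 7.29 in MyD88 KO. For both genes the 3 MyD88 KO arrays were the highest of the 9, and the gap narrowed from 0 to 4 h, from 0.46 to 0.24 for Mcm5 and from 0.38 to 0.24 for Mcm2. Mcm4 read 8.12, 8.09 and 7.89 in wild type, 8.31, 8.26 and 8.06 in MyD88 KO and 8.17, 8.14 and 8.07 in TRIF KO. It stood 0.19, 0.17 and 0.17 above wild type, a small difference that was alike at the 3 times. Mcm3 read 8.39, 8.50 and 8.48 in wild type and 8.49, 8.36 and 8.28 in MyD88 KO, with TRIF KO at 8.39, 8.40 and 8.48. It differed by 0.09, -0.14 and -0.20, and the clamp Pcna by -0.07, -0.03 and 0.06.

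Over all 10 genes, the 3 MyD88 KO arrays lay above the 3 wild-type arrays for 5 (Mcm2, Mcm5, Mcm6, Mcm7 and Rrm2), against 8.5% of all genes, and above the other 6 arrays for 4, against 2.41%. These counts come from the contrast that chose the genes. The Pearson correlation over the 9 arrays between a gene and the mean of the other members was 0.97 for Mcm6, 0.95 for Mcm4 and 0.90 for Mcm7, but 0.63 for Rrm1, 0.50 for Pcna and -0.37 for Mcm3. These values share the same 9 arrays and the genotype contrast that chose the genes, and are a description.

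In TRIF KO macrophages the median difference of the genes from wild type was smaller than in MyD88 KO. Mcm7, Mcm6, Cdt1 and Mcm4, however, lay 0.19, 0.33, 0.22 and 0.08 below MyD88 KO on average, nearer to it than to wild type. The mean differences from wild type over the 3 times were 0.58 for Mcm7, 0.38 for Mcm6, 0.28 for Rrm2, 0.24 for Cdt1 and 0.10 for Mcm5, with a median of 0.10 over the 10 genes and 0.01 over all genes. TRIF KO lay above wild type at all 3 times for 7 of the 10, against 20.7% of all genes. Mcm2, by contrast, differed by -0.01, and its TRIF KO levels of 7.24, 7.01 and 7.07 overlapped those of wild type. The order MyD88 KO, TRIF KO, wild type held at all 3 times for Cdt1, Mcm5, Mcm6 and Rrm2, against 3.64% of all genes. The wild-type arrays are shared by both of these comparisons, and no test is given for the members here. Other probe sets gave smaller values for Rrm2 and Mcm7 in TRIF KO. For Rrm2 the mean differences were 0.12 (1448226_at) and 0.03 (1416120_at). The latter lay below wild type at 0 h (-0.09) and 4 h (-0.01), so the order did not hold for it. For Mcm7 they were 0.34 (1416030_a_at), 0.16 (1439269_x_at) and -0.01 (1416031_s_at).

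The other probe sets of the same genes gave a mixed picture. Of the 25, 14 stood above wild type in MyD88 KO at all 3 times, against 17.6% of the 16712 probe sets that passed the filter. Of those 14, 11 passed it themselves. The 3 probe sets of Rrm2 differed by 0.87 (1434437_x_at), 0.56 (1448226_at, under log2 = 6 on all arrays) and 0.35 (1416120_at) on average over the times. The pair for Mcm6 differed by 0.70 and 0.74. The second probe set of Mcm2 differed by 0.17 against 0.33 for the first. For Mcm7 they disagreed, with mean differences of 0.76 (1438320_s_at), 0.44 (1416030_a_at), 0.29 (1439269_x_at) and 0.05 (1416031_s_at). In the platform's naming, s marks probes shared by several transcripts and x probes that may bind other sequences. The probe set that stands for Rrm2 is of the x kind. The 5 probe sets of Mcm3 all lay between -0.08 and 0.08.

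**Figure D2:**
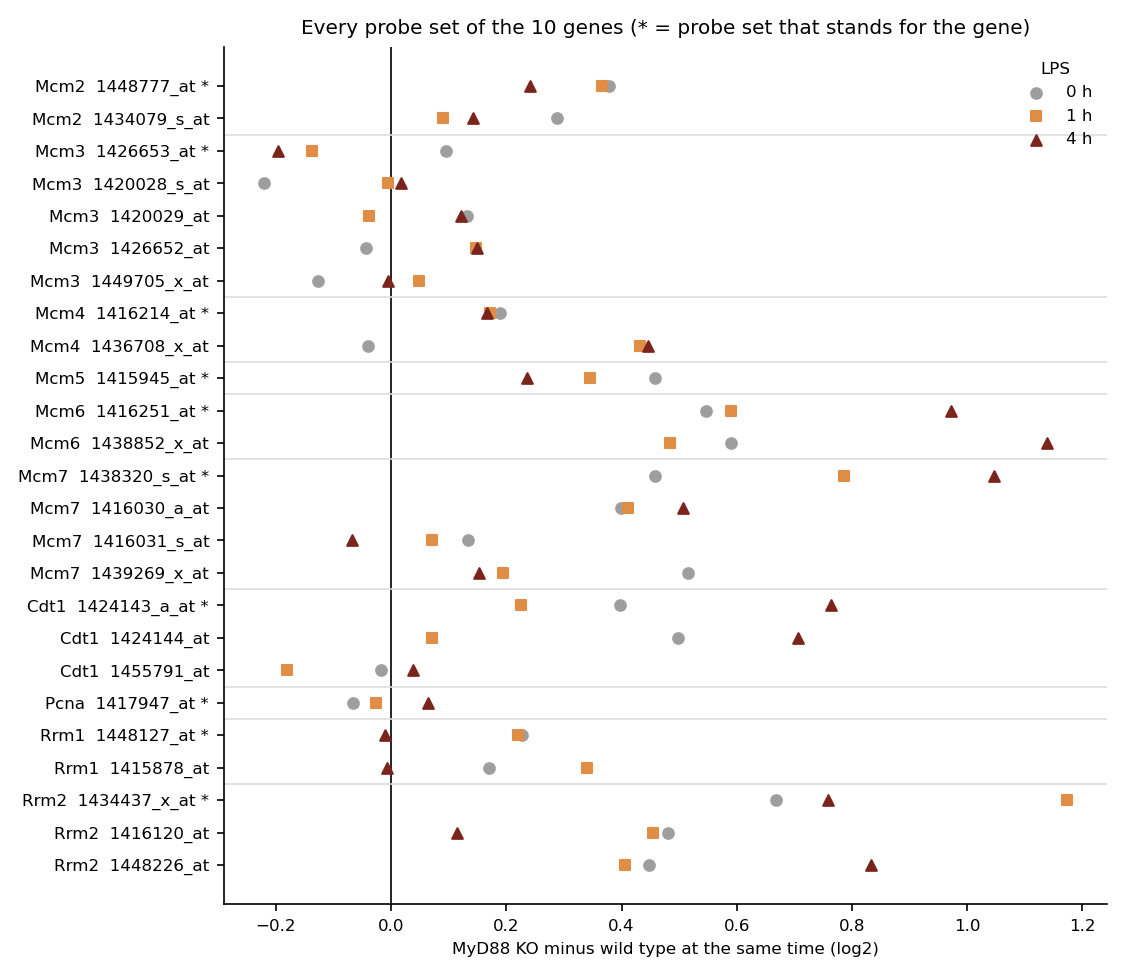
Difference between MyD88 KO and wild type (log2) at 0, 1 and 4 h of LPS for each of the 25 probe sets, grouped by gene, with a star for the one that stands for the gene. The probe sets of Mcm6 and Rrm2 lie to the right of 0 at every time, those of Mcm3 lie around 0, and 1 of the 4 for Mcm7 differs from the others.

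How the genes changed with LPS was tested with limma in a fit of genotype and time over all 9 arrays. Time is a term apart from genotype in that fit, but the same arrays chose the genes. A low wild-type array at 4 h would add to the difference between MyD88 KO and wild type and to a fall at 4 h alike. The calls at 4 h are therefore not independent of the choice. After 4 h, 4 of the 10 genes fell: Mcm7, Cdt1, Mcm6 and Pcna. None rose by limma, and 0 were higher at an unadjusted p under 0.05. Over all genes 7.13% fell and 4.62% rose. Mcm7 fell by 0.62 ± 0.10 (log2, SE; limma, Benjamini-Hochberg adjusted p = 0.00118), Cdt1 fell by 0.51 ± 0.09 (limma adjusted p = 0.00279) and Mcm6 fell by 0.46 ± 0.08 (limma adjusted p = 0.00289), each lower in 3 of 3 genotypes. These 3 calls held in all 17 alternatives run for them, with limma adjusted p up to 0.0272, but the fall of Mcm7 was 0.23 when all its probe sets were averaged.

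Pcna fell by 0.27 ± 0.06 (limma adjusted p = 0.0164). It read 12.51, 12.36 and 12.16 at 0, 1 and 4 h in wild type, 12.45, 12.33 and 12.22 in MyD88 KO and 12.39, 12.36 and 12.17 in TRIF KO, so that the 4 h array was the lowest in each genotype. The call was lost in 6 of 17 alternatives, with limma adjusted p up to 0.154: with arrays centred on reference transcripts, without the TRIF KO arrays, and without the 0 h or the 4 h array of wild type or of TRIF KO. Mcm4 and Mcm2 were at -0.19 and -0.19, with limma adjusted p = 0.0759 and 0.101, and were lower in 3 of 3 genotypes without passing. Mcm5, Rrm2, Rrm1 and Mcm3 were at -0.12, -0.10, -0.10 and -0.01. In all, 8 of the 10 genes were lower at 4 h in each of the 3 genotypes, against 27.2% of all genes. The median of the 10 genes was -0.19, against -0.02 over all genes.

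For the genes that fell most, the measured change had another size in each genotype. From 0 to 4 h, Mcm7 moved by -0.90 in wild type, -0.65 in TRIF KO and -0.31 in MyD88 KO. Mcm6 moved by -0.70, -0.41 and -0.27 in the same order, and Cdt1 by -0.73, -0.42 and -0.37. Wild type thus had the largest and MyD88 KO the smallest change in all 3 genes. With 1 array a group these differences between genotypes have no error and were not tested. The probe sets of Mcm7 again differed. The wild-type change was -0.27 for 1416030_a_at (limma adjusted p = 0.0733 over all probe sets for the mean of the genotypes) and 0.16 for 1416031_s_at. For Cdt1 the second probe set, 1424144_at, fell by 0.58 (limma adjusted p = 0.0030 over all probe sets).

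**Figure D3:**
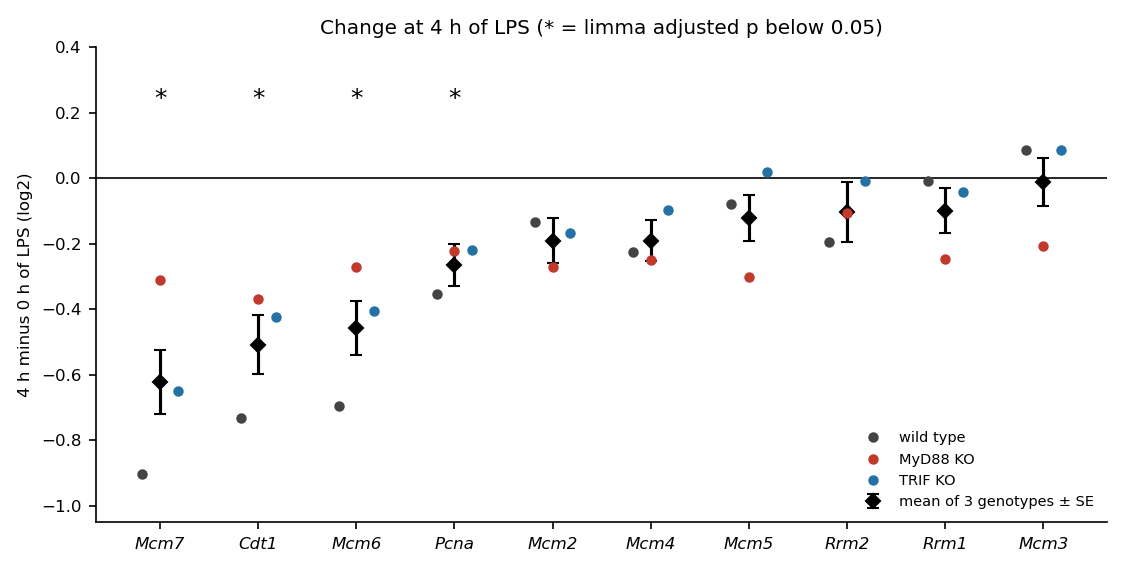
Change from 0 to 4 h of LPS (log2) for each gene: coloured points are the 3 genotypes, diamonds their mean with the SE of the limma fit, and stars mark an adjusted p below 0.05. Mcm7, Cdt1, Mcm6 and Pcna are marked, and for the first 3 the wild-type point lies lowest and the MyD88 KO point highest.

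After 1 h of LPS none of the 10 genes passed by limma in either direction, and 0 did at an unadjusted p under 0.05. The mean changes lay between -0.15 for Mcm7 and 0.11 for Cdt1. Over all genes 0.289% rose at 1 h by limma and 0.0% fell, with 278 genes lower at an unadjusted p under 0.05.

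To see how far other genes of the cell cycle went with the 10, 7 lists of such genes without the members were tested in the same fit. Of their 164 genes, 121 were measured above the filter, and 13 (10.7%) stood higher in MyD88 KO than in wild type by limma, against 4.56% of all genes. None was lower by limma, and 5 were at an unadjusted p under 0.05. Of the 121, 3 (Kif11, Ttk and Uhrf1) passed the filter only through the MyD88 KO arrays and so had to stand higher there. Without them, a choice made after the values were seen, 13 of 118 were higher, with a median difference of 0.05 and 78 above 0. The lists were drawn up with earlier results of these arrays known, so their direction is no independent evidence. The 13 were Gmnn, Cdc45, Pclaf, Dnmt1, Ccnd3, Birc5, Ccna2, Ccnb2, Cdk1, Cenpa, Smc2, Top2a and Ube2c. With arrays centred on reference transcripts the counts were 6 higher and 6 lower. Without the MyD88 KO array of 4 h 8 were higher, and without all 4 h arrays 6 were.

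In the list for G2 and mitosis, 8 of 26 genes (30.8%) stood higher in MyD88 KO once Kif11 and Ttk were left out, with a median difference of 0.11 and 23 above 0. Ube2c, the ubiquitin-conjugating enzyme of the anaphase-promoting complex, read 6.05, 5.75 and 5.98 in wild type and 6.44, 6.44 and 6.45 in MyD88 KO, a difference of 0.52 ± 0.07 (SE; limma adjusted p = 0.000874). In TRIF KO it read 5.94, 5.89 and 5.97, within the range of wild type. Top2a, the topoisomerase that untangles chromosomes, read 6.68, 6.60 and 6.79 in wild type, 7.20, 7.09 and 7.19 in MyD88 KO and 6.68, 6.48 and 6.74 in TRIF KO. Its MyD88 KO arrays lay above the other 6. Birc5 (survivin) and Ccna2 (cyclin A2) were higher by 0.51 and 0.46, and Mki67, the usual marker of dividing cells, by 0.15 without passing (limma adjusted p = 0.548). Without the wild-type array of 1 h, or with arrays centred on reference transcripts, 5 of the list were higher, and 2 with genes kept only at a mean of 7 or more. The calls for Birc5, Ccna2, Ccnb2 and Ube2c held in every alternative in which they were tested, that for Top2a was lost in 1 of 17, that for Cdk1 in 9 of 18, that for Cenpa in 7 of 17 and that for Smc2 in 5 of 17.

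Of the other genes for origins, forks and nucleotide supply, 3 of 51 (5.88%) were higher, near the 4.56% of all genes. In the list of origin licensing and firing they were 2 of 19. Gmnn, the geminin that binds and blocks Cdt1, read 7.34, 7.07 and 6.22 in wild type and 7.44, 7.54 and 7.11 in MyD88 KO (0.49 ± 0.11, limma adjusted p = 0.0188). Cdc45, a partner of the MCM ring in the active helicase, was higher by 0.26. Its call was lost in 12 of 17 alternatives, and that for Gmnn in 7 of 18, with a difference of 0.32 without the wild-type array of 4 h. Gins1 and Topbp1 were at 0.19 and 0.19 without passing. In the list of polymerases and fork proteins 1 of 24 was higher: Pclaf, a small Pcna-binding protein, by 0.50 ± 0.06 (limma adjusted p = 0.000579). Pola2, Lig1 and Rfc1 were at -0.23, 0.21 and 0.20 without passing. In the list of nucleotide supply 0 of 8 passed by limma (2 higher and 1 lower at an unadjusted p under 0.05), with Dut at 0.26, Ctps at -0.17, Tk1 at 0.17 and Dtymk at 0.11. In the list of S phase chromatin 1 of 8 was higher, Dnmt1, the maintenance DNA methyltransferase, by 0.42. Its call was lost in 6 of 18 alternatives, with a difference of 0.27 without the wild-type array of 4 h. Slbp and Hat1 were at -0.14 and -0.10, and Uhrf1, which reached log2 = 6 only on a MyD88 KO array, was at 0.14. Over origin, fork and nucleotide genes together the count of 3 higher genes became 6 without the wild-type array of 0 h, and 1 without that of 1 h or without the MyD88 KO array of 1 h or 4 h.

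Among the regulators of entry into S phase, 1 of 23 was higher, near the share of all genes. It was Ccnd3 (cyclin D3), by 0.29, and its call was lost in 3 of 18 alternatives. Cks1b, Cdkn1a (the inhibitor p21) and Rb1 were at 0.31, -0.31 and 0.17 without passing. E2f1 was at 0.11. In the list of replication checkpoint and repair 0 of 11 passed by limma (2 higher and 1 lower at an unadjusted p under 0.05), with Atm, Chek2, Atr and Rad54l at 0.26, 0.19, -0.16 and 0.13. In a further list of regulators of macrophage proliferation, 2 of 11 (18.2%) were higher, against 4.56% of all genes. The median difference of that list was 0.0004, with 6 above 0. The 2 were Klf4, by 0.58, and Bhlhe40, by 0.39, the latter call being lost in 4 of 18 alternatives. Gata6 and Maf were at 0.24 and -0.21 without passing.

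**Figure D4:**
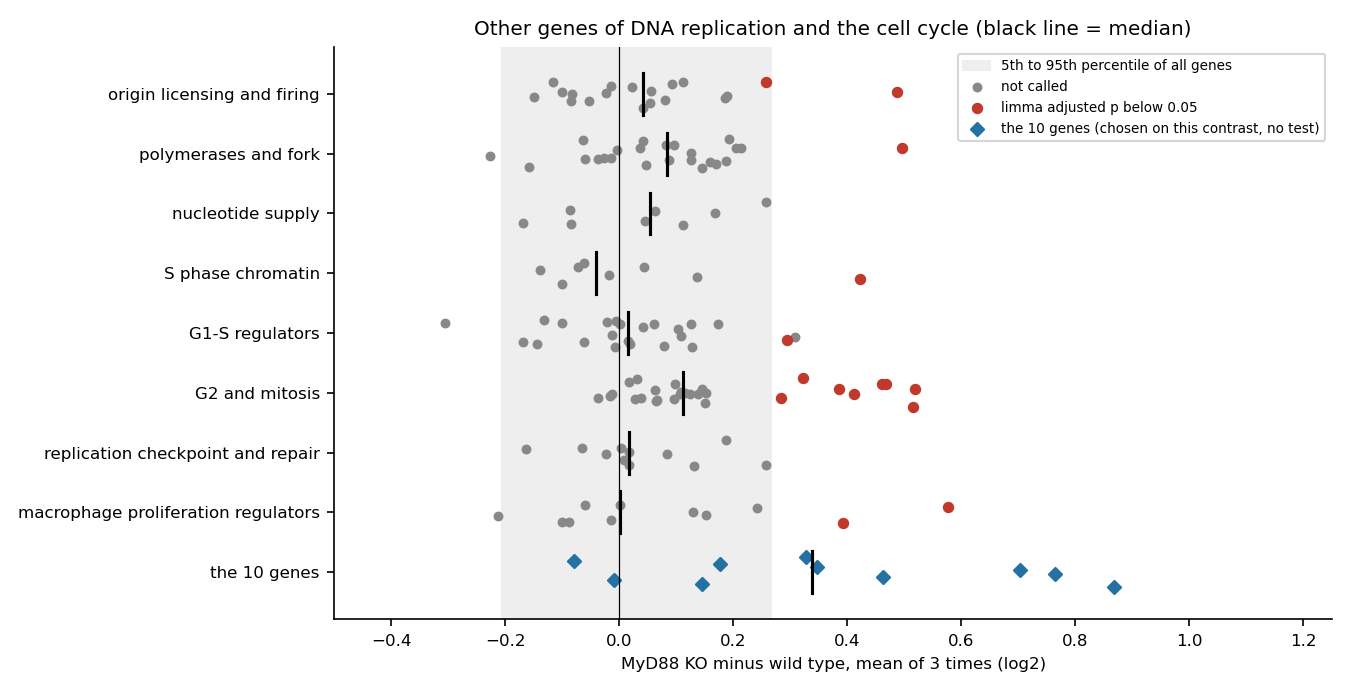
Difference between MyD88 KO and wild type (log2, mean of 3 times) for the genes of each list without the 10 genes, 1 point a gene, red where limma's adjusted p is below 0.05, with the median as a black line. Red points are most frequent in the list of G2 and mitosis, and the grey band, from -0.21 to 0.27, holds all but the lowest and highest tails of all genes. Blue diamonds are the 10 genes, chosen on this contrast.

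Between TRIF KO and wild type none of the 121 genes passed by limma, against 1.18% of all genes higher and 0.419% lower, while 9 were higher and 1 lower at an unadjusted p under 0.05. A direct comparison of MyD88 KO with TRIF KO was added after the values were seen. In it 6 of the 121 genes were higher in MyD88 KO and 0 lower by limma, against 1.02% and 1.38% of all genes, with 5 lower at an unadjusted p under 0.05. The 6 were Birc5, Ccna2, Ccnb2, Pclaf, Top2a and Ube2c, all also higher against wild type. Both comparisons share the MyD88 KO arrays and the error of the fit, so this overlap is not independent support. Top2a differed by 0.52 ± 0.06 (limma adjusted p = 0.000597) and Ube2c by 0.51 ± 0.07 (limma adjusted p = 0.00196). Gmnn and Dnmt1 were at 0.27 and 0.20 in that comparison and did not pass. Without the TRIF KO array of 0 h, 1 h or 4 h, the count of 6 was 2, 3 and 3. It was 2 with arrays centred on reference transcripts.

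With 4 h of LPS, 12 of the 121 genes (9.92%) fell and 6 (4.96%) rose by limma, shares near the 7.13% and 4.62% of all genes. Gmnn fell by 0.68, Dna2, a nuclease of the fork, fell by 0.58, and Cenpa, the histone of centromeres, fell by 0.50. Dnmt1 fell by 0.43, and E2f1 and Cdk4 fell by 0.29 and 0.33. Cdkn1a rose by 0.66, Mki67 by 0.61 and Ccnd2 by 0.32. Cdkn1a, the inhibitor of cyclin-dependent kinases, read 10.32, 10.43 and 11.41 in wild type and 10.16, 10.36 and 10.72 in MyD88 KO, and wild type at 4 h was the highest of the 9 arrays. Set side by side, Gmnn, Dnmt1 and Cenpa resembled Mcm6, Mcm7 and Cdt1, being lower at 4 h and higher in MyD88 KO. Top2a, Ube2c, Birc5 and Ccna2 had a higher level in MyD88 KO and changes at 4 h between -0.05 and 0.05 that did not pass. These groupings were made after the values were seen and were not tested.

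**Figure D5:**
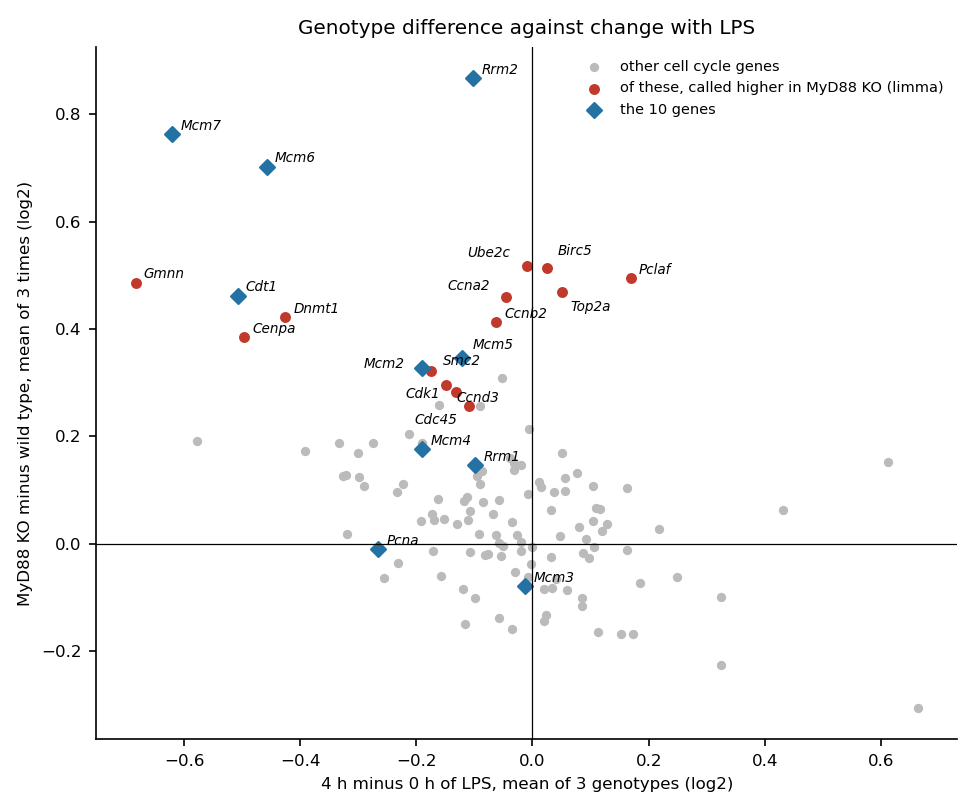
Difference between MyD88 KO and wild type (log2, mean of 3 times) against the change from 0 to 4 h of LPS (log2, mean of 3 genotypes) for the 10 genes and the other cell cycle genes. Mcm6, Mcm7, Cdt1, Gmnn, Dnmt1 and Cenpa lie at the upper left, and Rrm2, Top2a, Ube2c, Birc5 and Ccna2 lie above the middle.

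The 10 genes most like the mean profile of the members over the 9 arrays, out of 1752 that are not members and varied by at least 0.5, held 0 genes of these lists. They were Rab3d, Capn2, Hal, Palm, Rnh1, Hsdl2, Zfyve26, Pi4k2a, Vps18 and Sidt2, with Pearson correlations of 0.96 to 0.99. Hal, histidine ammonia-lyase, read 6.81, 6.53 and 6.27 in wild type and 7.59, 7.60 and 7.11 in MyD88 KO. Rab3d, a small GTPase of secretory vesicles, read 8.60, 8.40 and 8.16 in wild type and 8.92, 8.85 and 8.64 in MyD88 KO. All these genes were picked for likeness to the members, so their higher level in MyD88 KO and lower level at 4 h follow from the choice. The 7 cell cycle lists hold only 121 of the 10032 genes analysed, so nothing is read from the count of 0.

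Transcripts of other cell types also differed between the genotypes. The summed level of 8 fibroblast markers was 9.43 to 9.51 (log2) in wild type, 9.87 to 9.99 in MyD88 KO and 9.80 to 9.99 in TRIF KO. Of the 5 that passed the filter, Col1a2, Col3a1 and Dcn were higher in both knockouts by limma, while Lum, Fap and Pdgfrb stayed under log2 = 6 on all arrays. Col3a1 passed the filter only through the knockout arrays and so had to stand higher there. The sums of 8 B cell markers were 10.98 to 11.22 in wild type, 10.97 to 11.11 in MyD88 KO and 10.88 to 10.94 in TRIF KO, with Cd79a and Ms4a1 lower in both knockouts and Pax5 and Ebf1 under log2 = 6 on all arrays. In MyD88 KO, Cd79b, Blk, Cd22 and Ighm were at -0.44, -0.16, 0.01 and 0.21 and did not pass by limma. Of 9 markers of resident peritoneal macrophages, Selp was higher (0.89) and Cxcl13 lower (-0.96) in MyD88 KO by limma. The sums of the 9 were 13.23 to 13.49 in wild type, 13.48 to 13.56 in MyD88 KO and 13.65 to 13.73 in TRIF KO. Those of 4 monocyte markers were 10.97 to 11.14, 11.29 to 11.42 and 11.17 to 11.31, with Ccr2 and Chil3 higher and Plac8 lower in MyD88 KO by limma. In 5 mesothelial markers they were 8.11 to 8.17, 8.29 to 8.32 and 8.07 to 8.30, with Krt19 higher and Msln and Wt1 under log2 = 6 on all arrays. Of 28 markers of neutrophils, erythroid, dendritic and mast cells, eosinophils and T or NK cells above the filter 0 passed by limma for MyD88 KO, with 2 higher and 1 lower at an unadjusted p under 0.05. Of the macrophage markers Marco, Cd14 and Adgre1 were lower and Mrc1 and Fcgr1 higher in MyD88 KO. Their part in the levels of the 10 genes was not tested.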

How the data were processed

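Total RNA of 9 samples was hybridised to 1 array each. The deposited values are log2 expression per probe set, which the submitters' processing notes say the authors made by RMA. This method normalizes arrays against each other, so a shift of all genes together would not be seen. Probe sets were named through the platform annotation, and 20393 of 22690 had 1 gene symbol. The probe set with the highest mean stood for a gene, and 10032 of 12394 genes reaching log2 = 6 on at least 1 array were tested. With 1 array a group, genotype and time were fitted as additive terms over all 9 arrays (4 residual degrees of freedom) with limma 3.58.1 in R 4.3.3, and p-values were adjusted by Benjamini-Hochberg over all genes, with a threshold of 0.05. The script was tested on simulated data. The design assumes like time effects in each genotype when it estimates the error.

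The 10 genes, and the pathway and marker lists, were chosen with earlier results of these data known. Named are all 10 genes and their probe sets, up to 4 genes per list with the largest difference between MyD88 KO and wild type, and the 10 genes most correlated with the mean profile; other names were chosen after their values were seen. Alternatives changed the filter, the probe set rule, the scale, the trend of the variance and the arrays used.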

Additional observations from a re-analysis of the deposited data

Results flagged for a closer look

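From 0 to 4 h of LPS Mcm3 moved by 0.08 in wild type and by -0.21 in MyD88 KO, opposite directions that differ by -0.29 (log2). Mcm5 moved by -0.08 in wild type and by 0.02 in TRIF KO, a difference of 0.1. Both rest on 1 array a group, and neither difference was tested.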

How the results depend on the processing

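No paired analysis was possible because the labels carry no replicate numbers and each group has 1 array; the genotypes were compared within times through the time term of the fit. The number of arrays limits the precision, and signal near log2 = 6 limits Mcm5 and Rrm2. The fall of Mcm6, Mcm7 and Cdt1 at 4 h kept its call in all settings run, but that of Mcm7 shrank from -0.62 to -0.23 with the mean of all probe sets. The median difference between MyD88 KO and wild type over the 10 genes was 0.34, and 0.30 to 0.38 with 1 array left out. It was lower in other settings: 0.21 centred on reference transcripts and 0.26 with the mean of all probe sets. With a mean of at least 7, or with values under 6 raised to 6, it was 0.25. Over the single probe sets of the genes that passed the filter it was 0.23. Leaving out 1 array, 3 to 4 of the 10 genes fell at 4 h. The cause of the changes below was not tested.

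Of the cell cycle genes, 13 were higher in MyD88 KO, against 6 with a mean of at least 7, 6 centred on reference transcripts, 6 without the 4 h arrays (chosen after seeing the data) and 8 to 17 with 1 array left out. The count lower went from 0 to 6 when centred, and to 0 to 1 with 1 array left out. For G2 and mitosis the 8 became 2, 5 and 5 in the same order, and 5 to 8. For other replication and nucleotide genes the 3 became 1 centred, 1 without the 4 h arrays, and 1 to 6. In TRIF KO the 0 became 1 with a mean of at least 7, with the mean of all probe sets and with a variance trend, and 0 to 1. Between MyD88 KO and TRIF KO the 6 became 2 with a mean of at least 7, 3 with values under 6 raised to 6, 2 centred, and 2 to 7.

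Small differences changed sign. At 1 h Mcm3 was 0.0082 with the mean of all probe sets and 0.0181 centred, Mcm4 0.0022 with the mean of all probe sets, and Rrm2 -0.0517 without the TRIF KO arrays. Between MyD88 KO and wild type, centring gave -0.0602 for Dck, -0.0127 for Dtymk, -0.0159 for E2f1 and -0.1051 for Rbl2. Without the 4 h arrays E2f4 was 0.0165, Rb1 -0.0558, Rbl2 -0.1052 and Topbp1 -0.0123. With 1 array left out the ranges were -0.0395 to 0.0263 for Pcna, -0.0099 to 0.1114 for Dck, -0.1063 to 0.0105 for E2f4, -0.0259 to 0.3491 for Mki67, -0.0033 to 0.43 for Rb1 and -0.0876 to 0.1415 for Rbl2. At 4 h they were -0.0636 to 0.067 for Mcm3 and -0.1644 to 0.0028 for Rrm2, and at 1 h -0.06 to 0.0706 for Mcm3, -0.103 to 0.0224 for Mcm5 and -0.064 to 0.1656 for Rrm2.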
